A study of Mus musculus with 24 samples.

Results

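Mouse embryonic fibroblasts (MEFs) were examined for 43 genes of fatty acid oxidation and of the peroxisome, picked by name from 55487 genes in the table. They comprise 16 genes of the carnitine shuttle and of mitochondrial oxidation, 9 of peroxisomal oxidation, 12 peroxins, and 6 that comprise *Ppara* and genes for making or hydrolysing acyl-CoA. The libraries came from wild-type (WT) MEFs and from MEFs lacking both *Tfeb* and *Tfe3* (*tfeb tfe3* DKO, written DKO), each given the vehicle DMSO, the MTOR inhibitor torin1 or the allosteric AMPK activator MK-8722, with 4 libraries in each of the 6 groups. WT and DKO are separate lines of cultured cells from another laboratory, so that line and genotype cannot be told apart, and the 4 libraries of each group came from 4 different passages of its line, between 7 and 11. The p-values therefore measure the spread between passages of these lines, and the labels give neither dose nor duration of treatment.

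Long-chain fatty acids are burnt in mitochondria after an acyl-CoA synthetase has activated them and the carnitine shuttle has carried them across the inner membrane. Peroxisomes shorten very long and branched chains, pass the products on to mitochondria, and destroy the hydrogen peroxide that their oxidases make. Peroxins build these organelles and import their enzymes from the cytosol. TFEB and TFE3 are transcription factors of lysosomal and autophagy genes that MTORC1 holds in the cytosol, and PPARA is a nuclear receptor that turns on oxidation genes in liver and other tissues that burn fat.

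Total counts per library lay between 24668921 and 33332562. The RNA integrity number was between 9.7 and 9.9 in all libraries but DKO MK-8722 replicate 3, at 7.9. *Tfeb* was at 20.9 to 24.97 CPM, the count scaled to the size of the library, in WT with DMSO, never lower than 14.01 CPM in WT and at 2.65 CPM or less in every DKO library, whereas *Tfe3* mRNA, between 77.5 and 122 CPM in WT and between 89.5 and 126 CPM in DKO, does not show the loss that the genotype names. Of 10 fibroblast markers, 9 had a median above 1 CPM, and their sum ranged from 6814 to 10017 CPM in WT with DMSO and from 5978 to 6988 CPM in DKO with DMSO. The 5 macrophage markers summed to at most 2.49 CPM in WT with DMSO and to 10.8 CPM or more in WT with MK-8722, nearly all of it *Cd68*, with *Csf1r* at 0.645 CPM or less and *Adgre1* at 0 in every library. The 5 epithelial markers, mainly *Krt8*, summed to 2.99 to 4.87 CPM in DKO with DMSO and to 9.88 to 14.5 CPM with torin1, the 4 of skeletal muscle, mainly *Acta1*, to 0.411 to 0.994 CPM in WT and 3.53 to 5.89 CPM in DKO with DMSO, and the 4 endothelial markers to 1.37 CPM or less. The 7 adipocyte and 4 hepatocyte markers never summed above 1.64 CPM. The part of these shifts in the results was not tested, and in bulk RNA fewer cells of a type and less RNA per cell cannot be told apart.

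Set per transcript length, the genes of mitochondrial oxidation were the most abundant class. TPM, a share of all transcripts corrected for length, had a median over the 16 mitochondrial genes of 49.3 in WT with DMSO, against 28.6 over the 9 peroxisomal genes and 16.9 over the 12 peroxins. The order was led by *Etfb* at 145 ± 11.1 TPM and *Etfa* at 115 ± 5.61 TPM (SD, n = 4), the subunits of the flavoprotein that takes electrons from the acyl-CoA dehydrogenases. *Acsl5*, an acyl-CoA synthetase, stood at 108 ± 2.12 TPM and the very long chain dehydrogenase *Acadvl* at 101.7 ± 3.49 TPM. *Cpt1a*, the carnitine palmitoyltransferase of the outer membrane whose step limits the rate of entry, was at place 34 with 13.1 ± 1.41 TPM. Among peroxins, *Pex19*, a carrier of peroxisomal membrane proteins, was highest at 41.3 ± 1.62 TPM and *Pex26*, which anchors the export ATPase, lowest at 5.61 ± 0.218 TPM. At the end stood *Ppara* at 0.169 ± 0.0425 TPM and *Ehhadh*, the L-bifunctional enzyme of peroxisomes, at 0.0923 ± 0.0250 TPM. Of the 42 neighbouring pairs in this order, the libraries of 33 overlapped, so that only its broad course is given by the data.

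**Figure D1:**
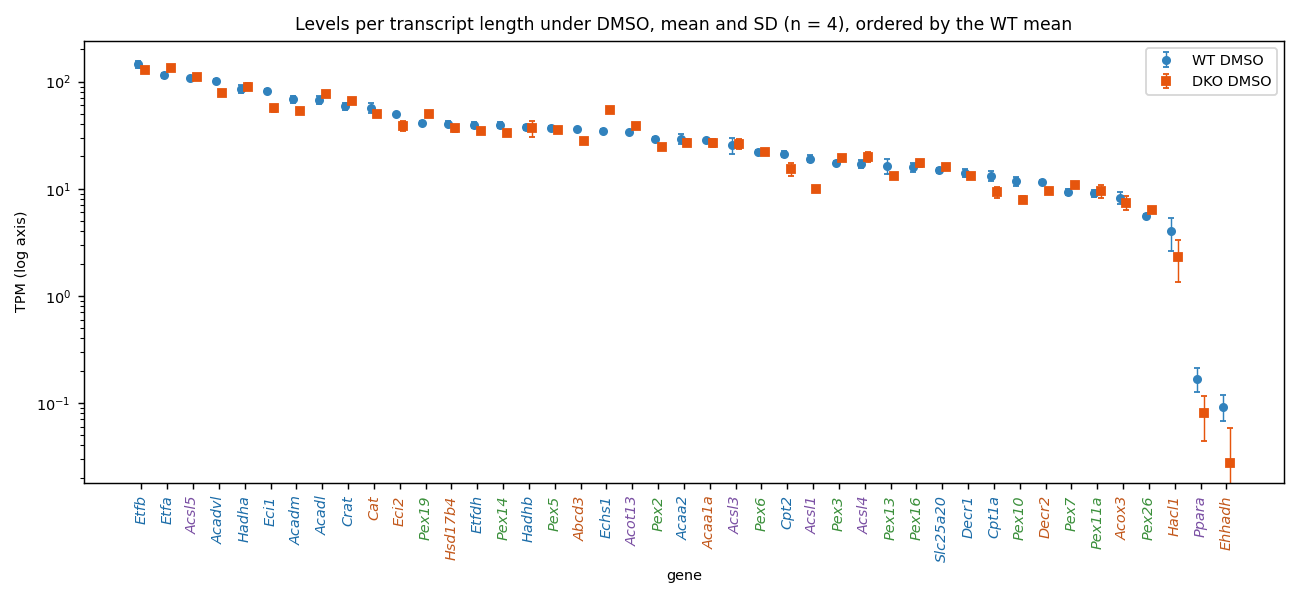
Mean TPM (log axis) with SD over 4 libraries for the 43 genes under DMSO, WT as circles and DKO as squares, ordered by the WT mean and with gene names coloured by class (blue mitochondrial, orange peroxisomal, green peroxins, purple acyl-CoA genes and *Ppara*). In WT the means run from 145 TPM for *Etfb* to 5.61 TPM for *Pex26* and 3.997 TPM for *Hacl1*, with *Ppara* at 0.169 TPM and *Ehhadh* at 0.0923 TPM far below, where the lower SD bar of *Ehhadh* in DKO runs off the axis.

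Drug and genotype effects were tested with edgeR's quasi-likelihood test on all 15401 genes with enough counts. A gene was called when its Benjamini-Hochberg adjusted p was below 0.05 and its fold change at least 1.2, which is 0.26 on the log2 scale. Of the 43 genes 42 were tested. *Ehhadh* was not, since its counts per library were between 3 and 11 in WT and between 0 and 4 in DKO. *Ppara* passed the filter on low counts through WT with torin1, the 1 group where all 4 libraries reached it, as did 1 library each of WT with DMSO and with MK-8722, so its values are given as a description, with no test. Counts over the 42 include it. Counts of genes higher or lower that it enters are given over the other 41 too, save under alternative processing. Counts in either direction are given over the 42 alone. Fold changes below are on the log2 scale with their standard error.

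With torin1 *Cpt1a* and 3 other mitochondrial genes, 4 of 8 peroxisomal genes, 6 of 12 peroxins and *Acot13* rose in WT. *Etfb* and 3 acyl-CoA synthetases fell there. In DKO 4 of 16 mitochondrial genes, 4 of 8 peroxisomal genes and 3 of 12 peroxins rose, and 2, none and 1 of them fell. *Acsl1*, *Acsl3*, *Acsl5* and *Acot13* fell in DKO too. In WT 16 of the 42 genes rose, or 15 of 41, and 4 fell with torin1, where 26.6% of all genes tested rose and 20.5% fell. In either direction 20 of 42 were called, *Ppara* among them, which is 47.6%, next to 47.1% of all genes tested. In DKO 11 rose and 7 fell, against 23% and 20.2% of all genes tested, and the 18 called are 42.9% of the 42, next to 43.2%. The share called was thus close to the background in both genotypes. The median log2 fold change in WT was 0.12 over mitochondrial genes, 0.30 over peroxisomal genes, 0.27 over peroxins and -0.26 over the last class (-0.35 without *Ppara*), and 0.05 over all genes tested. In DKO the same medians were 0.13, 0.25, 0.13 and -0.42 (-0.53 without *Ppara*), with 0.02 over all genes.

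**Figure D2:**
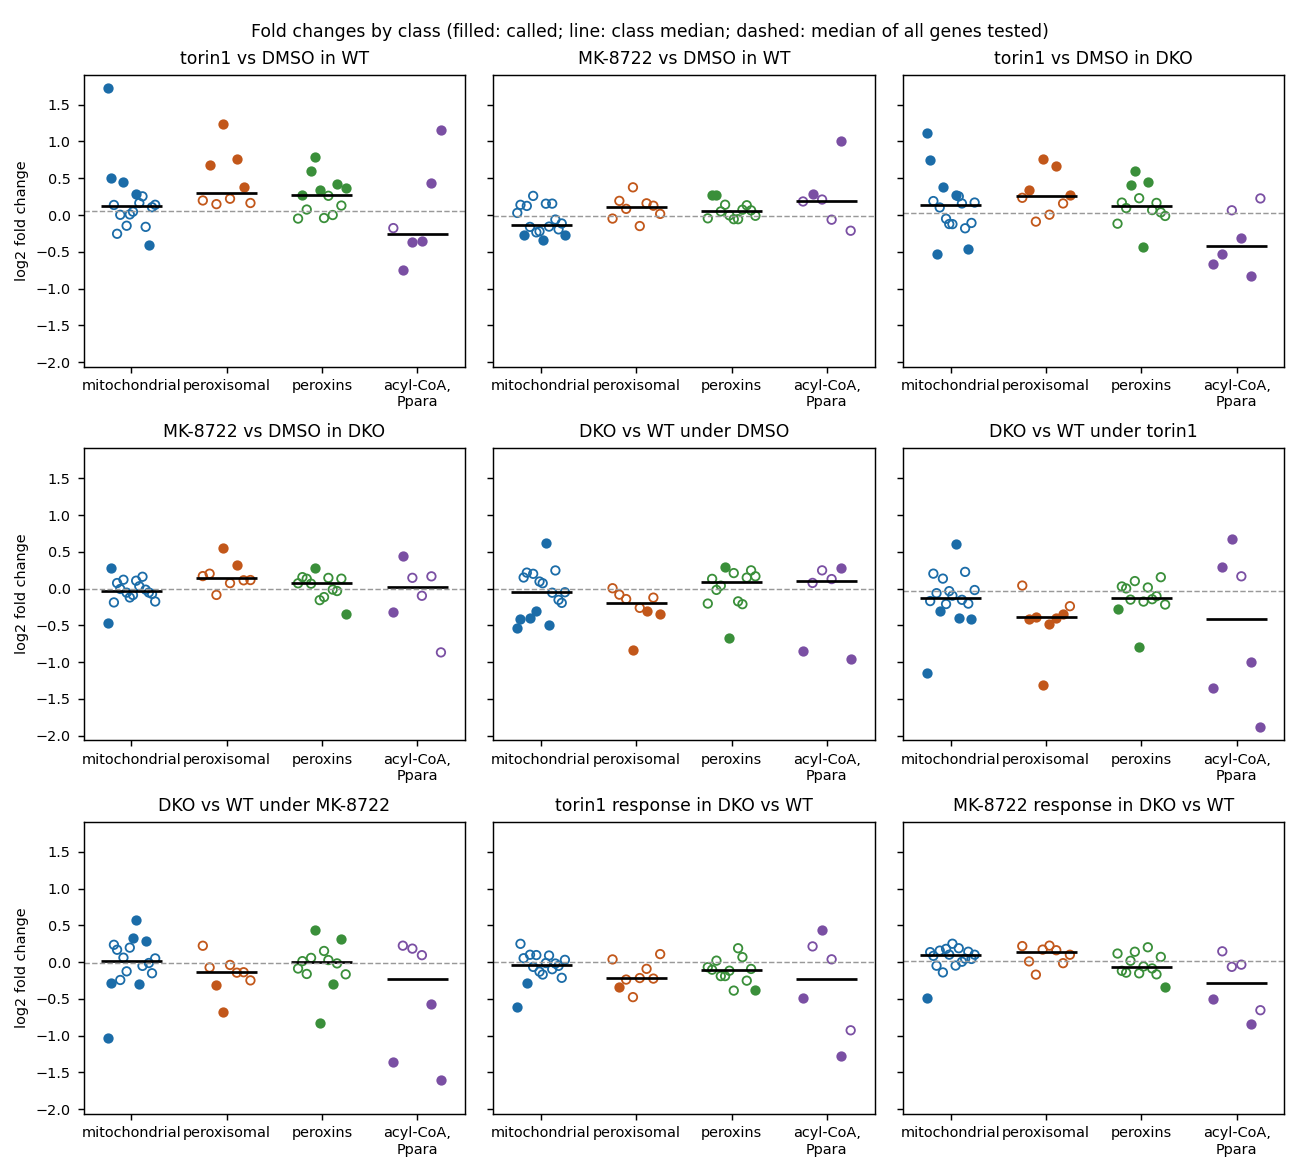
Log2 fold changes of the 42 genes tested in each of the 9 comparisons, in columns by class, with filled points for called genes, a black line at the class median and a dashed line at the median of all genes tested. With torin1 in WT the peroxisomal median is 0.30 and that of the acyl-CoA genes and *Ppara* is -0.26, and with MK-8722 in WT the mitochondrial median is -0.14.

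Within the carnitine shuttle, *Cpt1a* changed most with torin1. *Cpt2*, which restores acyl-CoA on the inner side, rose from 24.6 ± 0.507 to 34.9 ± 2.09 CPM in WT and from 18.4 ± 1.33 to 31.0 ± 1.38 CPM in DKO (SD, n = 4). *Slc25a20*, the carrier between both enzymes, was at 16.2 ± 0.847 and 17.8 ± 0.757 CPM in WT, a difference under the fold threshold. The long-chain dehydrogenase *Acadl* rose by 0.44 ± 0.06 in WT and 0.38 ± 0.06 in DKO, and the hydratase *Echs1* by 0.28 ± 0.05 and 0.27 ± 0.05. *Etfb* fell by 0.41 ± 0.06 and 0.46 ± 0.06. The remaining genes of the mitochondrial spiral were not called with torin1 in either genotype. They are the dehydrogenases *Acadm* and *Acadvl*, the trifunctional protein subunits *Hadha* and *Hadhb*, the helper enzymes for unsaturated chains *Eci1* and *Decr1*, *Etfa*, its acceptor *Etfdh*, and the thiolase *Acaa2*, with log2 fold changes from -0.18 to 0.25.

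In peroxisomes, *Decr2*, the dienoyl-CoA reductase, rose by 0.76 ± 0.06 with torin1 in WT and by 0.66 ± 0.06 in DKO. Catalase (*Cat*) rose from 71.4 ± 6.37 to 93.0 ± 4.13 CPM in WT and was at 65.5 ± 4.44 and 73.1 ± 3.76 CPM in DKO, where it was not called. *Abcd3*, the transporter that brings acyl-CoA into peroxisomes, rose by 0.27 ± 0.04 in DKO and differed by 0.16 ± 0.04 in WT, under the threshold. The D-bifunctional enzyme *Hsd17b4*, the isomerase *Eci2*, which also works in mitochondria, and the thiolase *Acaa1a* were not called in either genotype. *Acaa1a* has a near-identical copy, *Acaa1b*, with which it can share reads, so its values are uncertain.

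*Hacl1*, the lyase that removes 1 carbon from hydroxylated branched chains, showed the largest rise among the peroxisomal genes with torin1 in WT. Its 4 WT libraries were at 3.44, 3.52, 4.48 and 2.38 CPM with DMSO, at 7.80, 7.94, 7.46 and 9.53 CPM with torin1 and at 5.89, 4.23, 4.09 and 3.74 CPM with MK-8722. In DKO they were at 2.64, 1.62, 1.61 and 1.76 CPM with DMSO, at 2.95, 3.71, 3.20 and 3.25 CPM with torin1 and at 2.82, 3.01, 2.69 and 2.74 CPM with MK-8722. Torin1 and DMSO libraries did not overlap in either genotype, MK-8722 and DMSO libraries overlapped in WT, and DKO DMSO replicate 1 stood apart from the other 3 of its group. Torin1 raised *Hacl1* by 1.24 ± 0.16 in WT (adjusted p = 6.42e-07, edgeR) and by 0.77 ± 0.18 in DKO (adjusted p = 0.00107), and the difference between both, -0.48 ± 0.25, was not called (adjusted p = 0.218). The gene lies on chromosome 14 of GRCm38 (31598730 to 31641286, minus strand) and shares its strand with *Gm49387*.

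Of the peroxins, *Pex7* and *Pex6* rose with torin1 in both genotypes. *Pex7*, receptor of the N-terminal targeting signal, rose from 8.29 ± 0.647 to 14.3 ± 1.26 CPM in WT and from 10.1 ± 0.236 to 15.3 ± 0.9 CPM in DKO. *Pex6*, a subunit of the ATPase that pulls the receptors out again, rose from 43.2 ± 1.09 to 65.5 ± 4.76 CPM and from 44.4 ± 1.65 to 59.0 ± 3.20 CPM. *Pex16* and *Pex3*, which insert membrane proteins, and *Pex10*, of the ubiquitin ligase complex, rose in WT by 0.42 ± 0.08, 0.27 ± 0.07 and 0.35 ± 0.08, and none of the 3 was called in DKO. The docking protein *Pex13* rose by 0.45 ± 0.05 and *Pex11a*, which elongates peroxisomes, fell by 0.43 ± 0.10 in DKO. In WT *Pex13* went from 24.9 ± 1.86 to 29.8 ± 0.590 CPM and *Pex11a* from 10.4 ± 0.486 to 10.1 ± 0.967 CPM, and neither was called. For none of these peroxins was the difference between the genotypes called. *Pex5*, receptor of the C-terminal signal, *Pex14*, its dock, *Pex19* and the ligase subunit *Pex2* were not called in either genotype. The WT calls of *Pex3* and *Echs1* were lost without any 1 of 7 and of 6 libraries, with log2 fold changes down to 0.21 and 0.24 then. For *Pex3* these were WT DMSO replicates 1 and 4, WT torin1 replicates 1 and 2 and WT MK-8722 replicates 1, 2 and 4, and for *Echs1* WT DMSO replicates 3 and 4, WT torin1 replicate 4 and WT MK-8722 replicates 1, 2 and 4. In DKO the call of *Echs1* was lost without DMSO replicate 1 or 4, torin1 replicate 3 or MK-8722 replicate 2, down to 0.24, and that of *Abcd3* without DMSO replicate 3, at 0.25.

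Of the acyl-CoA synthetases, *Acsl3*, which is found on the endoplasmic reticulum and on growing lipid droplets, fell from 40.5 ± 6.40 to 24.2 ± 2.32 CPM with torin1 in WT and from 42.8 ± 2.58 to 29.6 ± 1.84 CPM in DKO. *Acsl5* fell by 0.35 ± 0.03 and 0.31 ± 0.03. Scaled by library size alone, the fall of *Acsl5* in WT was 0.26 and no longer called.

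Whether the response to a drug depended on the genotype was tested as the difference of its log2 fold changes, DKO minus WT. For torin1 this difference was called below 0 for 6 of the 42 genes and above 0 for 1, where 6.33% and 4.68% of all genes tested were called, 11% in either direction. Those below 0 were *Cpt1a*, *Crat*, *Acox3*, *Pex26*, *Acsl1* and *Acot13*, and *Acsl4* was above 0. The class medians were -0.04 for mitochondrial genes, -0.22 for peroxisomal genes, -0.11 for peroxins and -0.23 for the last class, or 0.04 without *Ppara*, against -0.01 over all genes tested. For MK-8722 it was called below 0 for 4, *Cpt1a*, *Pex26*, *Acsl1* and *Acot13*, and above 0 for none, where 4.08% and 1.42% of all genes were called, 5.49% in either direction. Its medians were 0.09, 0.13, -0.07 and -0.28, the last -0.06 without *Ppara*, against 0.01. Both tests use the DMSO libraries of each genotype and are therefore not independent, and the values of each are given side by side.

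*Cpt1a* (ENSMUSG00000024900, chromosome 19 of GRCm38 from 3322334 to 3385733, plus strand) was at 29.2, 32.9, 27.4 and 31.8 CPM in the 4 WT libraries with DMSO, at 101, 97.1, 98.3 and 105 CPM with torin1 and at 32.7, 32.6, 31.0 and 27.4 CPM with MK-8722. The DKO libraries were at 22, 19.5, 21.7 and 20.2 CPM with DMSO, at 47.0, 41.9, 47.9 and 45.0 CPM with torin1 and at 15.8, 14.96, 15.7 and 13.9 CPM with MK-8722. Torin1 libraries lay far above DMSO libraries in both genotypes, and MK-8722 libraries overlapped DMSO libraries in WT and lay below them in DKO. Torin1 raised *Cpt1a* by 1.73 ± 0.06 in WT and by 1.12 ± 0.06 in DKO, a difference of -0.61 ± 0.09 (adjusted p = 4.24e-05, edgeR). With MK-8722 it changed by 0.03 ± 0.06 in WT (adjusted p = 0.786) and fell by 0.47 ± 0.07 in DKO, a difference of -0.49 ± 0.09 (adjusted p = 0.000934, edgeR).

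*Acot13*, a thioesterase of mitochondria and cytosol that splits long-chain acyl-CoA into fatty acid and coenzyme A, showed the largest differences of the 42 genes in both tests. It lies on chromosome 13 (24817948 to 24831540, minus strand). Its WT libraries were at 12.6, 12.4, 12.8 and 12.3 CPM with DMSO, at 14.01, 17.2, 18.1 and 18.6 CPM with torin1 and at 26.7, 23.7, 26.9 and 23.3 CPM with MK-8722. Its DKO libraries were at 14.3, 14.9, 16.2 and 15.4 CPM with DMSO, at 9.86, 9.11, 8.30 and 6.86 CPM with torin1 and at 17.5, 16.5, 18.1 and 16.03 CPM with MK-8722. Torin1 thus moved the libraries apart from DMSO upwards in WT and downwards in DKO, without overlap, while MK-8722 libraries stood above DMSO in WT and overlapped them in DKO. Torin1 raised *Acot13* by 0.44 ± 0.09 in WT and lowered it by 0.83 ± 0.09 in DKO, and the difference was -1.27 ± 0.13 (adjusted p = 3.06e-07, edgeR). MK-8722 raised it by 1.01 ± 0.09 in WT (adjusted p = 9.96e-09) and changed it by 0.17 ± 0.09 in DKO (adjusted p = 0.207), a difference of -0.84 ± 0.13 (adjusted p = 8.72e-05, edgeR).

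*Acsl1*, the acyl-CoA synthetase most tied to oxidation and fat storage (chromosome 8, 46471037 to 46536051, plus strand), was at 35.0, 38.3, 34.1 and 36.4 CPM in WT with DMSO, at 33.1, 33.4, 29.7 and 31.0 CPM with torin1 and at 37.9, 44.3, 40.5 and 40.8 CPM with MK-8722. In DKO it was at 20.4, 20.2, 19.9 and 19.1 CPM with DMSO, at 11.3, 14.04, 13.5 and 11.1 CPM with torin1 and at 13.7, 16.9, 15.5 and 17.8 CPM with MK-8722. All DKO libraries lay below all WT libraries, and in DKO the libraries of each drug lay below those with DMSO. Torin1 lowered *Acsl1* by 0.67 ± 0.08 in DKO and changed it by -0.18 ± 0.07 in WT, a difference of -0.49 ± 0.11 (adjusted p = 0.00284, edgeR). MK-8722 lowered it by 0.32 ± 0.08 in DKO and changed it by 0.18 ± 0.07 in WT (adjusted p = 0.0586), a difference of -0.50 ± 0.11 (adjusted p = 0.0037, edgeR). Without DKO MK-8722 replicate 1 the fall in DKO was 0.25 and not called.

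*Pex26* (chromosome 6, 121183667 to 121198837, plus strand) anchors the export ATPase, of which *Pex6* codes a subunit, in the peroxisomal membrane. It was at 13.9, 13.8, 12.8 and 13.2 CPM in WT with DMSO, at 15.9, 19, 17.6 and 17.01 CPM with torin1 and at 14.3, 12.8, 13.05 and 13.2 CPM with MK-8722. The DKO libraries were at 14.2, 15.6, 15.8 and 14.8 CPM with DMSO, at 14.4, 15.2, 15.8 and 14.4 CPM with torin1 and at 12.2, 11.9, 11.3 and 12.3 CPM with MK-8722. Torin1 libraries cleared DMSO libraries in WT and overlapped them in DKO, and MK-8722 libraries overlapped them in WT and lay below them in DKO. The torin1 effect was 0.37 ± 0.06 in WT and -0.01 ± 0.06 in DKO, with a difference of -0.38 ± 0.08 (adjusted p = 0.00209, edgeR). The MK-8722 effect was -0.01 ± 0.06 in WT and -0.34 ± 0.06 in DKO, with a difference of -0.33 ± 0.08 (adjusted p = 0.0124, edgeR).

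**Figure D3:**
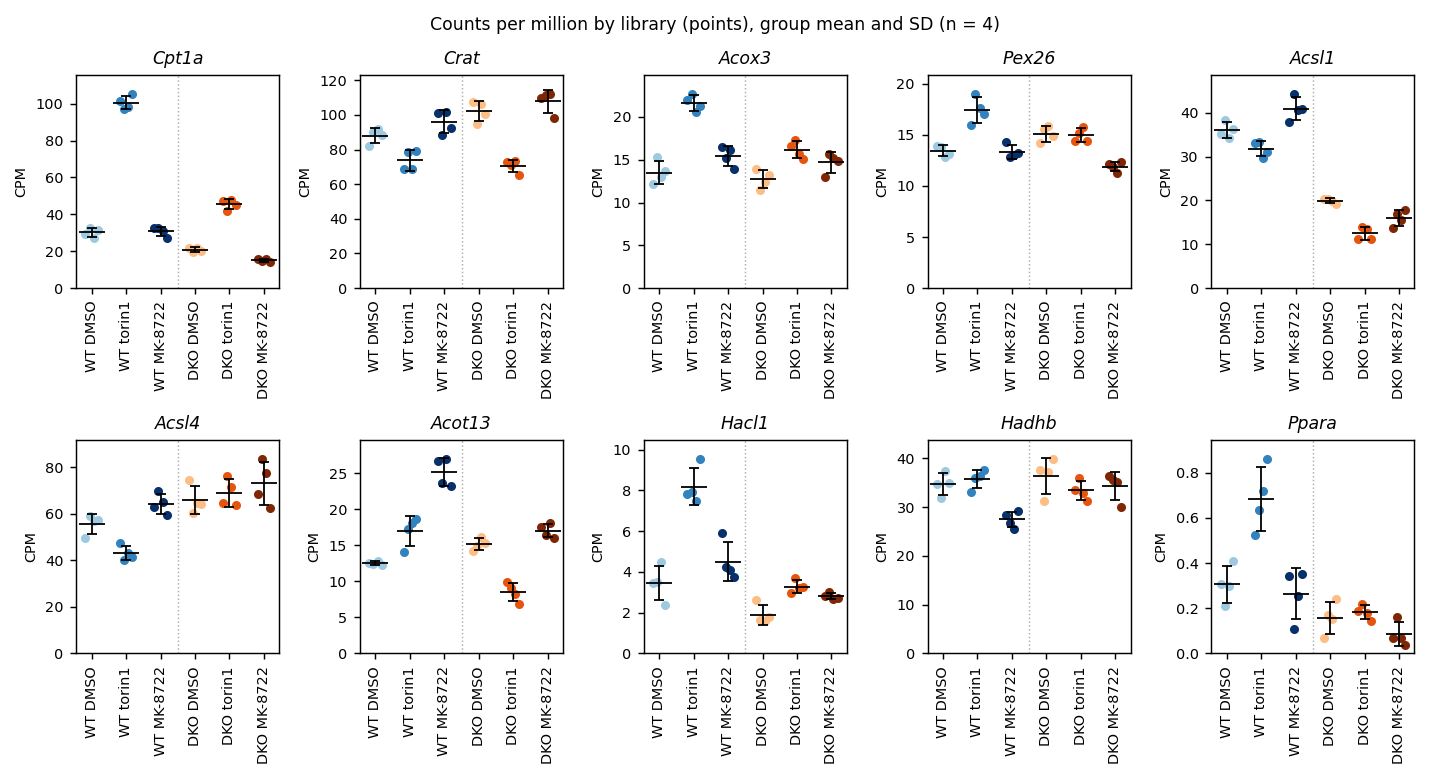
CPM in each of the 24 libraries (points) with group mean and SD (n = 4) for the 10 genes described library by library, WT to the left and DKO to the right of the dotted line, with the axis from 0. *Cpt1a* reaches 97.1 to 105 CPM in WT with torin1 and 41.9 to 47.9 CPM in DKO, and *Acot13* rises above DMSO with torin1 in WT and falls below it in DKO.

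RefSeq windows around the transcription start, 250 bases before to 50 after on GRCm38.p6, were at hand for 36 of the 43 genes, as 41 windows. They were read for *Cpt1a*, *Acsl1* and *Pex26*, whose differences were called for each drug. *Acot13*, also called for each drug, had no window. The bases before the start are shown 5′ to 3′ with matches to the GC box GGGCGG, on either strand, in capitals. The windows are chr19:3323051-3323300, chr8:46470787-46471036 (1 of 2 for this gene) and chr6:121183417-121183666, all on the plus strand. The stretch of *Cpt1a* precedes the RefSeq start but lies inside the span given above for the gene, 3322334 to 3385733. That span is from another annotation, GENCODE.
*Cpt1a*: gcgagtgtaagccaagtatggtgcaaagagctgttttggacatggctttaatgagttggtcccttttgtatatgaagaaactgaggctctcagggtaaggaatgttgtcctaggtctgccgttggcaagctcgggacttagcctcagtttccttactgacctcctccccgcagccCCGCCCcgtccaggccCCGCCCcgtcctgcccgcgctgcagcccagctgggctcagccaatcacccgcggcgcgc
*Acsl1*: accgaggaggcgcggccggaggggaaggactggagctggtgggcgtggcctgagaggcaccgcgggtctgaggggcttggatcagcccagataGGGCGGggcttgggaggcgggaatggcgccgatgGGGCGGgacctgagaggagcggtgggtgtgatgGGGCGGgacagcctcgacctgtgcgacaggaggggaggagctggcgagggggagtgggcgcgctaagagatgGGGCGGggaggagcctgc
*Pex26*: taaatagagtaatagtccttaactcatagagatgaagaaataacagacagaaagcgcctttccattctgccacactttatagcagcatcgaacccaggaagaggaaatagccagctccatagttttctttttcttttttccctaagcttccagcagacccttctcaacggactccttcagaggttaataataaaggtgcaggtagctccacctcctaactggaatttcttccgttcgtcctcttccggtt

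The stretch of *Acsl1* holds 4 GC boxes and is 72.0% G or C, that of *Cpt1a* holds 2 at 59.6%, and that of *Pex26* holds none at 42.8%. Over whole windows, GGGCGG was found in 30 of the 41, 73.2%, against 35.7% of all 32851 windows and 62.3% of the 13497 windows of tested genes. CCAAT was found in 16 of 41, 39.0%, against 37.4% and 38.1%. The E-box CACGTG, the core of the element to which TFEB and TFE3 bind, was in none of the 41, against 7.15% of all windows and 9.77% of those of tested genes. Both strands were searched, and these letters may stand outside the windows.

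*Crat*, which moves acetyl groups between carnitine and coenzyme A, was at 82.0, 90.04, 91.7 and 88.6 CPM in WT with DMSO and at 68.8, 78.8, 68.5 and 79.1 CPM with torin1. In DKO it was at 107, 94.9, 106 and 101 CPM with DMSO and at 73.0, 71.0, 73.1 and 65.6 CPM with torin1. Torin1 libraries lay below DMSO libraries in both genotypes. The fall was 0.25 ± 0.06 in WT, under the threshold, and 0.53 ± 0.06 in DKO, and the difference of -0.28 ± 0.09 just passed (adjusted p = 0.0315, edgeR). With MK-8722 the WT libraries were at 101, 88.3, 101.8 and 92.4 CPM and the DKO libraries at 109.8, 111, 112 and 98.1 CPM, overlapping those with DMSO, and *Crat* was not called.

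*Acox3*, an oxidase of branched-chain acyl-CoA, was at 12.1, 15.3, 12.99 and 13.6 CPM in WT with DMSO and at 21.97, 22.7, 20.5 and 21.2 CPM with torin1. The DKO libraries were at 13.9, 11.4, 12.4 and 13.3 CPM with DMSO and at 16.6, 17.3, 15.6 and 15.1 CPM with torin1. The libraries with torin1 cleared those with DMSO in both genotypes and by more in WT. The rises were 0.68 ± 0.08 and 0.34 ± 0.08, with a difference of -0.34 ± 0.11 (adjusted p = 0.0376, edgeR). With MK-8722 it was at 16.4, 15.2, 16.1 and 13.9 CPM in WT and at 13.01, 15.7, 15.2 and 14.8 CPM in DKO, which overlapped DMSO in both, and was not called.

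*Acsl4*, the synthetase that prefers arachidonic acid, was the gene whose difference lay above 0. It was at 49.4, 59.0, 56.7 and 57.3 CPM in WT with DMSO and at 47.5, 40.2, 43.3 and 41.5 CPM with torin1. In DKO it was at 74.6, 60.3, 64.8 and 64.1 CPM with DMSO and at 64.8, 76.1, 71.5 and 63.5 CPM with torin1. Torin1 libraries lay below DMSO libraries in WT and overlapped them in DKO. The effect was -0.37 ± 0.09 in WT and 0.06 ± 0.09 in DKO, and the difference was 0.43 ± 0.12 (adjusted p = 0.0176, edgeR). With MK-8722 the WT libraries were at 63.1, 69.8, 65.0 and 59.3 CPM, above those with DMSO by a narrow margin, and the DKO libraries at 68.7, 83.4, 77.6 and 62.4 CPM, overlapping theirs, and neither effect was called.

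The calls of the torin1 differences of *Crat* and *Acox3* sat at the threshold, while their sizes moved little when 1 library was left out. That of *Crat* was lost without WT DMSO replicate 1 or 4, WT torin1 replicate 2 or 4, WT MK-8722 replicate 1, 2 or 4, DKO DMSO replicate 1 or 3, or DKO torin1 replicate 2 or 4, with values from -0.27 to -0.23 and adjusted p up to 0.0882. That of *Acox3* was kept without WT DMSO replicate 2, DKO DMSO replicate 2 or 3, DKO torin1 replicate 2, or DKO MK-8722 replicate 1 or 2, and was lost without any of the other 18 libraries, with values from -0.34 to -0.28 and adjusted p from 0.0503 to 0.103 (edgeR). *Acox3* overlaps the antisense gene *4931431C16Rik* and *Crat* the opposite-strand genes *Dolpp1* and *Gm16323*.

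**Figure D4:**
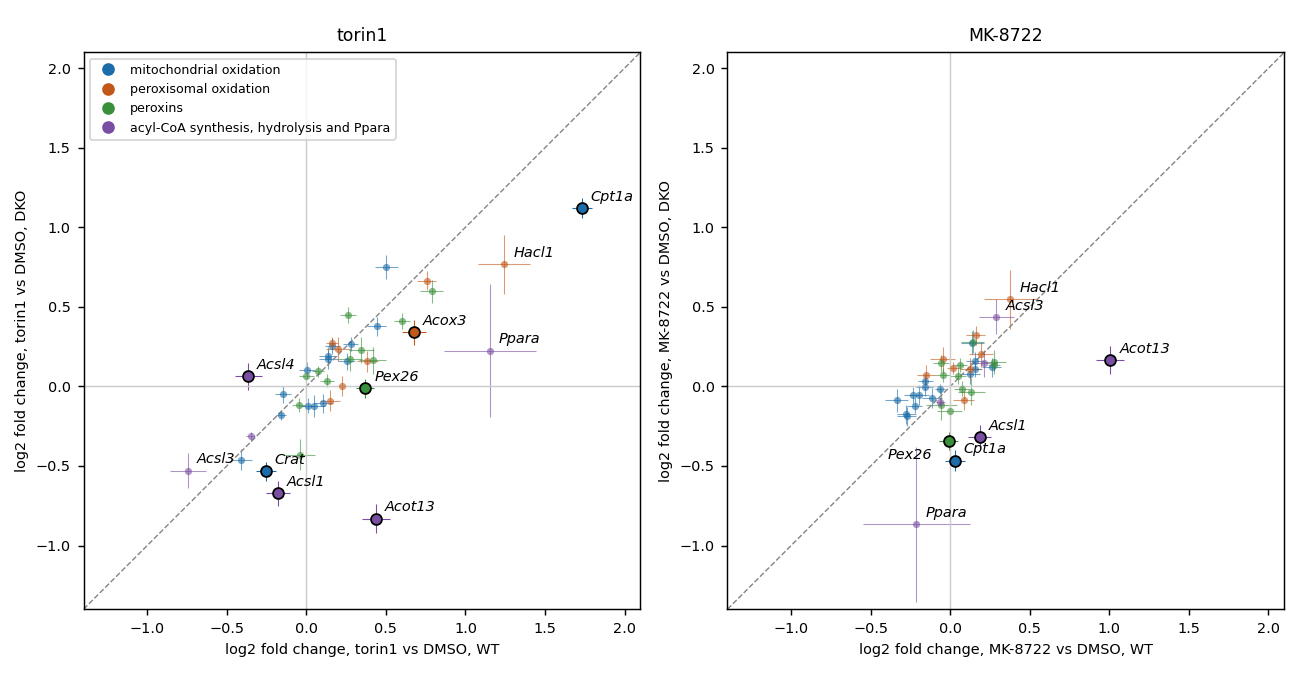
Log2 fold change in WT (horizontal) and in DKO (vertical) for torin1 (left) and MK-8722 (right), with standard errors as bars, coloured by class. Genes whose difference between genotypes was called have a black rim, and the dashed line marks equal effects. Of the rimmed genes, *Acot13* and *Cpt1a* lie furthest below the line with torin1, and *Acsl4* lies above it. *Ppara*, given as a description only, also lies below the line with torin1, without a rim.

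MK-8722 changed fewer of the genes. In WT 4 of 42 rose and 3 fell, against 10.3% and 5.87% of all genes tested, and the 7 called are 16.7% of the 42, next to 16.1%. In DKO 5 rose and 3 fell, against 5.47% and 3.21%, and the 8 called are 19% of the 42, against 8.69% of all genes tested. The 3 that fell in WT belong to mitochondria. *Hadhb*, the thiolase subunit of the trifunctional protein, was at 34.7, 31.8, 37.3 and 35.0 CPM in WT with DMSO, at 33.2, 36.0, 36.4 and 37.6 CPM with torin1 and at 28.3, 26.8, 25.5 and 29.2 CPM with MK-8722. The DKO libraries were at 37.6, 31.2, 37.3 and 39.8 CPM with DMSO, at 33.6, 36.0, 32.9 and 31.3 CPM with torin1 and at 36.4, 35.6, 35.2 and 30.1 CPM with MK-8722. The WT libraries with MK-8722 lay below those of the other 5 groups, among which libraries overlapped. *Hadhb* fell by 0.34 ± 0.07 with MK-8722 in WT (adjusted p = 0.000893, edgeR) and changed by -0.09 ± 0.07 in DKO, and the difference of 0.25 ± 0.10 was not called (adjusted p = 0.175).

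*Acaa2* and *Slc25a20* fell with MK-8722 in WT by 0.28 ± 0.06 and 0.27 ± 0.06, and were at -0.18 ± 0.06 and -0.19 ± 0.06 in DKO, under the threshold. The median of the 16 mitochondrial genes was -0.14 in WT and -0.03 in DKO, where that of all genes was -0.01 and 0.00. No peroxisomal gene was called in WT. In DKO *Decr2* rose by 0.32 ± 0.06 and *Hacl1* by 0.55 ± 0.19 (adjusted p = 0.0411, edgeR). Among peroxins, *Pex5* and *Pex3* rose in WT by 0.28 ± 0.04 and 0.27 ± 0.07, and *Pex7* in DKO by 0.28 ± 0.07. *Cpt2* rose by 0.27 ± 0.07 in DKO. *Acsl3* rose in both, by 0.29 ± 0.11 in WT (adjusted p = 0.0476) and by 0.44 ± 0.11 in DKO (adjusted p = 0.00642, edgeR), the reverse of its direction with torin1.

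Several of these MK-8722 calls sat at a threshold. In WT that of *Acsl3* was lost without any 1 of 19 libraries, kept without WT DMSO replicate 2, WT torin1 replicate 1 or 3, WT MK-8722 replicate 4 or DKO MK-8722 replicate 2, and *Pex3* was lost without WT DMSO replicate 1 or 4 or MK-8722 replicate 1 or 2, down to 0.20. *Acaa2* was lost without WT DMSO replicate 2 or 4, *Slc25a20* without WT DMSO replicate 2 and *Pex5* without WT MK-8722 replicate 1 or 3, at -0.22, -0.25 and 0.25. Without WT DMSO replicate 4, 4 genes were called in WT in place of 7. In DKO *Hacl1* was lost without DMSO replicate 2, 3 or 4 or any of the 4 MK-8722 libraries, with adjusted p from 0.0558 to 0.125, and *Cpt2* without DMSO replicate 3 or 4 or MK-8722 replicate 2 or 3, down to 0.20. Against a fold change of 1.2 as the null hypothesis (edgeR's glmTreat), *Acot13* alone was called in WT and no gene in DKO.

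Between the lines, *Cpt1a*, *Acsl1*, *Hacl1*, *Pex10* and *Eci1* were lower and *Echs1* higher in DKO under each of the 3 treatments. Over all 42 genes the share called lower was near that of all genes tested under DMSO and MK-8722. The shares called higher and called in either direction lay below those of all genes tested under each treatment. Under DMSO 11 of 42 genes were lower in DKO, or 10 of 41, and 3 higher, against 24.6% and 23.5% of all genes tested, or 14 against 48.2% in either direction. With torin1 15 were lower, or 14 of 41, and 3 higher, against 27.8% and 24%, or 18 against 51.8%. With MK-8722 10 were lower, or 9 of 41, and 5 higher, against 25.4% and 23.3%, or 15 against 48.7%. The peroxisomal genes had medians of -0.20, -0.39 and -0.14 under DMSO, torin1 and MK-8722, with 3, 6 and 2 of 8 lower, where the mitochondrial genes had -0.05, -0.12 and 0.02, with 5, 4 and 3 of 16 lower and 1, 1 and 3 higher. The medians of the 12 peroxins were 0.09, -0.12 and 0.00. The medians over all genes tested were -0.01, -0.04 and -0.01.

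*Cpt1a* differed by -0.54 ± 0.06 under DMSO, -1.15 ± 0.06 with torin1 and -1.03 ± 0.07 with MK-8722, and *Acsl1* by -0.85 ± 0.08, -1.35 ± 0.08 and -1.36 ± 0.08. *Hacl1* differed by -0.84 ± 0.18, -1.32 ± 0.16 and -0.67 ± 0.17 in the same order. *Pex10* was at 10.5 ± 0.814, 13.4 ± 1.24 and 10.5 ± 0.531 CPM in WT and at 6.61 ± 0.426, 7.74 ± 0.623 and 5.93 ± 0.499 CPM in DKO. *Eci1* differed by -0.49 ± 0.05, -0.40 ± 0.05 and -0.30 ± 0.05. *Echs1* differed by 0.62 ± 0.05, 0.61 ± 0.05 and 0.57 ± 0.05, from 30.3 ± 1.39 CPM in WT to 46.6 ± 1.94 CPM in DKO under DMSO.

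*Ppara* was low in all libraries, so it is given in counts. They ranged from 7 to 12 with a median of 9 in WT with DMSO, from 16 to 24 with a median of 21.5 with torin1 and from 3 to 9 with a median of 8.5 with MK-8722. In DKO they ranged from 2 to 6 with DMSO, from 4 to 6 with torin1 and from 1 to 4 with MK-8722. In CPM the WT libraries were at 0.307, 0.211, 0.299 and 0.409 with DMSO, at 0.522, 0.635, 0.721 and 0.860 with torin1 and at 0.344, 0.107, 0.256 and 0.350 with MK-8722. The DKO libraries were at 0.0685, 0.171, 0.154 and 0.241, at 0.187, 0.221, 0.180 and 0.143, and at 0.0687, 0.160, 0.0700 and 0.0385 in that order. WT libraries with torin1 stood above all others, and the DMSO libraries of both lines overlapped. *Ehhadh*, at a summed 21, 35 and 23 counts over 4 WT libraries with DMSO, torin1 and MK-8722, had 6, 3 and 5 in DKO.

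The remaining differences between the lines held under fewer treatments. *Acadm*, *Cpt2*, *Acadvl*, *Abcd3* and *Decr2* were lower in DKO under DMSO, by 0.40 ± 0.05, 0.42 ± 0.07, 0.31 ± 0.05, 0.35 ± 0.04 and 0.31 ± 0.06 on the log2 scale. With torin1 *Acadm*, *Etfdh*, *Acox3*, *Hsd17b4*, *Eci2*, *Decr2*, *Cat*, *Pex2* and *Acot13* were lower, from -0.99 ± 0.09 for *Acot13* to -0.27 ± 0.04 for *Pex2*, and *Acsl3* and *Acsl4* higher. With MK-8722 *Cpt2*, *Hsd17b4*, *Pex14* and *Acot13* were lower, from -0.56 ± 0.09 for *Acot13* to -0.28 ± 0.07 for *Cpt2*, and *Hadhb*, *Etfa*, *Pex7* and *Pex19* higher, from 0.29 ± 0.03 for *Etfa* to 0.43 ± 0.07 for *Pex7*. Under DMSO *Pex7* and *Acot13* were higher in DKO by 0.29 ± 0.07 and 0.28 ± 0.09. *Hadha*, *Decr1* and *Acaa1a* were called in no comparison.

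Of the calls between the lines that 1 library could end, most were near the fold threshold. Under DMSO *Pex7* was lost without WT DMSO replicate 2 or WT MK-8722 replicate 1, 2 or 4, down to 0.24, and *Acot13* without WT torin1 replicate 1 or 3, WT MK-8722 replicate 1, 2 or 4 or DKO DMSO replicate 3, down to 0.24. With torin1 *Pex2* was lost without WT torin1 replicate 1 or 2, WT MK-8722 replicate 3, DKO DMSO replicate 1, DKO torin1 replicate 2, 3 or 4 or DKO MK-8722 replicate 3, at -0.26 to -0.25, *Acsl3* without WT torin1 replicate 2, 3 or 4 or DKO torin1 replicate 4, and *Acadm* without DKO torin1 replicate 4, at -0.26. With MK-8722 *Cpt2* was lost without DKO MK-8722 replicate 1 or 4, at -0.25 and -0.21, and *Pex14* without DKO MK-8722 replicate 3, the library of lower RNA integrity, at -0.26.

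**Figure D5:**
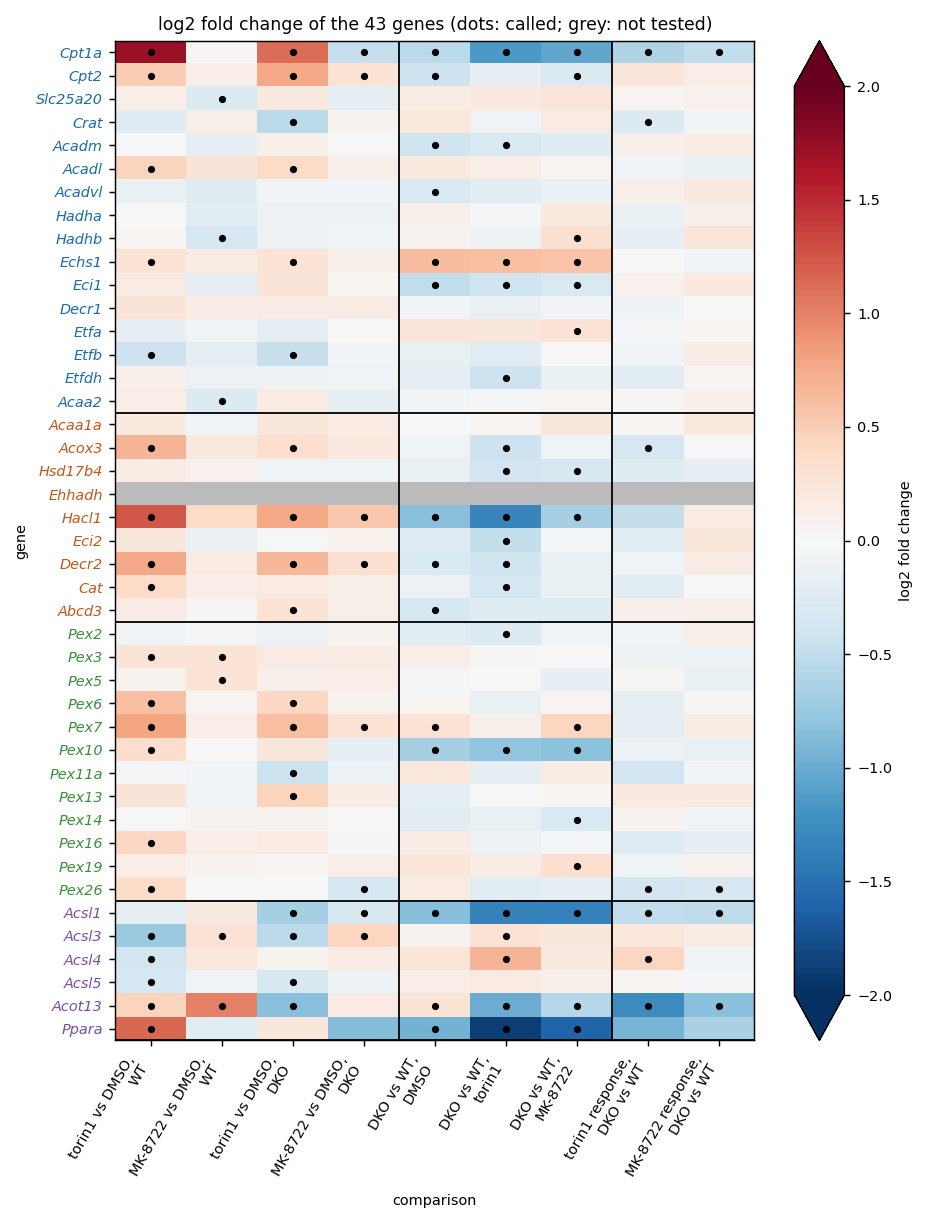
Log2 fold change of each of the 43 genes in the 9 comparisons, red for higher and blue for lower, with dots on called values, grey for *Ehhadh*, which was not tested, and lines between the classes. *Cpt1a*, *Hacl1* and *Acsl1* are blue in all 3 comparisons of DKO with WT, and *Echs1* is red.

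Shares of transcripts were read for the 7 genes with a called difference. The main transcript of *Acot13*, ENSMUST00000006900, made up from 94.1% to 99.1% of its TPM in the 6 groups. That of *Cpt1a*, ENSMUST00000025835, made up from 71.9% to 80.7%, and that of *Acsl1*, ENSMUST00000034046, from 46.4% to 48.0%, with SD of up to 6.91 and 6.68 percentage points within a group. Shares of *Acox3* and *Pex26* ranged more widely, ENSMUST00000068947 of *Acox3* from 45.7% to 55.7% and ENSMUST00000120066 of *Pex26* from 35.8% to 45.1%, with SD of up to 10.3 and 8.79 points. ENSMUST00000201106 of *Acox3* ranged from 0% to 10.7%, with SD of up to 9.12 points, and ENSMUST00000125633 of *Pex26* stood at 10.1% ± 1.96 in DKO with DMSO and 3.53% ± 2.74 with torin1 (SD, n = 4). The leading transcripts of *Crat* and *Acsl4*, ENSMUST00000028207 and ENSMUST00000112904, ranged from 30.5% to 34.3% and from 40.3% to 45.1%. None of these shares was tested.

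Genes of the same and of neighbouring pathways outside the 43 were read from lists. The list of other mitochondrial oxidation genes is broad. It also holds genes of amino acid and propionate breakdown, among them *Ivd*, *Pcca* and *Pccb*. *Acacb*, an acetyl-CoA carboxylase and not an oxidation enzyme, is in it too. Its counts are therefore not of fatty acid oxidation genes alone. The difference in response, DKO minus WT, was called below 0 with torin1 for 4 of 21 other mitochondrial oxidation genes, with *Acadsb*, a dehydrogenase of short branched chains, and *Acad11* at -0.35 ± 0.06 and -0.35 ± 0.10, and for none with MK-8722 in either direction (edgeR), where 6.33% and 4.08% of all genes tested were called below 0. With torin1 12 of the 21 rose in WT and 6 in DKO, against 26.6% and 23% of all genes, and medians were 0.32 and 0.07. Of 16 genes tested of the PPAR family, its coactivators and targets, 2 were below 0 and 2 above 0 with torin1, where 4.68% of all genes were above 0, and 2 below 0 with MK-8722. *Acot1*, a thioesterase, at -2.14 ± 0.69, and *Fabp3*, a fatty acid binding protein, at -1.59 ± 0.33 with torin1 and -1.42 ± 0.33 with MK-8722, were the largest, both from levels under 2 CPM. *Acot1* was at 0.604 to 0.824 CPM in WT with torin1, its highest group. In DKO with DMSO it ranged from 0.0343 to 0.481 CPM, so its value is a description only, though the count below 0 includes it. The kinase *Pdk4* and the lipase inhibitor *Angptl4* were above 0 with torin1, at 0.99 ± 0.31 and 0.90 ± 0.27. *Plin2*, a coat protein of lipid droplets, was at -0.46 ± 0.10 with MK-8722 and at -0.01 ± 0.10 with torin1. Among the PPAR receptors, *Ppard* was the most abundant, at 96.4 ± 4.34 CPM in WT and 92.9 ± 2.49 CPM in DKO with DMSO, and *Pparg* was at 2.98 ± 0.438 and 1.12 ± 0.381 CPM. The coactivator *Ppargc1b* was at 2.03 ± 0.634 CPM in WT and 0.141 ± 0.0672 CPM in DKO, and *Ppargc1a* at 0.209 ± 0.0804 and 0.467 ± 0.122 CPM.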

How the data were processed

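Polyadenylated RNA of 24 libraries was sequenced. Per the labels and methods, the authors processed reads with the nf-core RNA-seq pipeline, aligned them with STAR to GRCm38, took molecular identifiers into account and deposited estimated counts per gene from salmon. The authors also deposited salmon's TPM per transcript, which was summed per gene here and used for levels alone. The study used edgeR, with limma for a batch it does not name.

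Here estimated counts were rounded, filtered with filterByExpr (minimum count 10), scaled by TMM and fitted in edgeR 4.0.16 (quasi-likelihood, edgeR 3 form) on R 4.3.3 with 6 group means over all 24 libraries. Calls needed a fold change of 1.2 or more and, after Benjamini-Hochberg adjustment, p below 0.05. The procedure was tested on simulated data. No replicate pair agreed within sampling noise.

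The 43 genes, gene lists and tests were chosen with earlier results of these data known. Values per library are given for genes with a called difference in response and for the 2 largest called changes of each other comparison. Alternatives were DESeq2 1.42.0, limma 3.58.1, other scalings, filters, blocks, thresholds and left-out libraries. Of the files' columns of values, 0 could not be assigned to a library. Some genes of the wider lists are not reported here.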

Additional observations from a re-analysis of the deposited data

Results flagged for a closer look

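By edgeR's test of the difference itself, the response to a drug differed between DKO and WT for 7 of 42 genes with torin1 and 4 with MK-8722. Of all genes tested, 11% and 5.49% were called. With torin1 the differences of log2 fold change, DKO minus WT, were -0.61 for *Cpt1a*, -0.28 for *Crat*, -0.34 for *Acox3*, -0.38 for *Pex26*, -0.49 for *Acsl1*, 0.43 for *Acsl4* and -1.27 for *Acot13*. With MK-8722 they were -0.49 for *Cpt1a*, -0.33 for *Pex26*, -0.50 for *Acsl1* and -0.84 for *Acot13*. The DMSO libraries enter both. The torin1 call of *Crat* was lost when any of 11 libraries was left out, and that of *Acox3* when any of 18 was.

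A single library stood far from the other 3 of its group for *Crat* in DKO MK-8722 replicate 4, at 98.1 CPM, and for *Hacl1* in DKO DMSO replicate 1, at 2.64 CPM, by Dixon's test of the gap to the nearest other library. These are 2 of 60 groups of 4 examined, and chance alone gives about 5 in 100.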

How the results depend on the processing

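Of 111 calls of single genes, 62 kept direction and call under all 39 alternatives, 46 were lost under at least 1, and 0 reversed. The 111 include 4 calls of *Ppara*, and 3 of these were kept under the fewer alternatives that gave it a value. *Ppara* passed the filter through 1 group, so its calls are no evidence, and the counts of this section include it. With the adjusted p alone, 33 genes were called with torin1 and 16 with MK-8722 in WT, 29 and 15 in DKO, and 28, 31 and 27 between the lines under DMSO, torin1 and MK-8722. Of all 15401 genes tested, 5011 then rose and 4320 fell with torin1 in WT, and 2432 and 2343 with MK-8722. In DKO these were 4460 and 4325, and 1619 and 1579. Between the lines 4809 were higher and 4918 lower under DMSO, 4808 and 5376 under torin1, and 4707 and 5008 under MK-8722. For the other alternatives no share over all genes is given, so their counts describe these genes alone. Against a fold change of 1.2 as null hypothesis (glmTreat), 1 was called with MK-8722 in WT and 0 in DKO, 9 and 8 between the lines under DMSO and MK-8722, and 2 and 1 in the torin1 and MK-8722 responses. Scaling by library size alone gave 12 in the torin1 response and moved the median of all genes by -0.13 between the lines under torin1. Without WT libraries of passage 11, 4 were called with MK-8722 in WT.

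Leaving out each library in turn gave 19 to 22 genes with torin1 and 4 to 8 with MK-8722 in WT, 17 to 19 and 6 to 8 in DKO, 13 to 16, 15 to 18 and 15 to 18 between the lines, and 5 to 7 with torin1 and always 4 with MK-8722 in the responses. The 4 with MK-8722 in WT came without WT DMSO replicate 4. Of the response calls, those of *Crat* and *Acox3* were also lost with DESeq2 size factors, with no filter and with an offset for transcript length. Those of *Acot13* for each drug and of *Cpt1a* for torin1 were kept under all 39, and those of *Pex26*, *Acsl1*, *Acsl4* and, for MK-8722, *Cpt1a* were lost with glmTreat alone.

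With the replicate number as a block, 20, 7, 18 and 8 genes were called for torin1 and MK-8722 in WT and in DKO, 14, 18 and 15 between the lines and 8 and 4 in the responses, and 0 calls were lost. Replicate numbers do not pair the libraries by their deviations, since 7 of 24 correlated best with a library of their own number, and a block for passage, where 20 of 24 did, also lost 0 calls. Depth limits *Ppara* and *Ehhadh*, at 24 counts or fewer per library, and *Ppara* gave no value under 2 alternatives.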
